A study of Mus musculus with 11 samples.

Results

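The genes described here are 43 genes that dividing cells use to copy and separate their chromosomes, read by gene symbol from a count table of 54532 genes in mouse hearts. All 43 symbols were found in the table, and 40 of them had enough counts to be tested, the exceptions being Ccnb1, Melk and Kif2c. Each of 11 samples was whole heart of a mouse labelled C57BL/6 at 26 weeks, with 1 RNA library per sample. No label says whether each sample came from a different mouse. In 4 libraries, called METTL3, the mice were labelled as given a high fat diet and streptozotocin (HFD+STZ, a combination commonly used to model diabetes) together with an AAV, commonly an adeno-associated virus, carrying METTL3, the enzyme that writes N6-methyladenosine into RNA. A further 4 libraries, called HFD+STZ, carried the same diet and drug label without the virus, and 3 came from chow-fed mice. The labels do not give the promoter or serotype of the virus, its dose or time, the sex of the mice, or whether the HFD+STZ mice were given a control virus. The streptozotocin and the diet are thus shared by METTL3 and HFD+STZ hearts, and the virus separates them.

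Cells enter S phase when E-type cyclins and E2F transcription factors switch on the genes for DNA synthesis, and the MCM helicase, loaded on replication origins, then unwinds the DNA. Genes of mitosis are held off by the DREAM complex in resting cells and are transcribed late in the cycle, when cyclin B and Cdk1 drive spindle assembly, the spindle checkpoint holds back the anaphase-promoting complex and a contractile ring divides the cell. Adult mouse cardiomyocytes rarely divide, and most dividing cells of an adult heart are endothelial cells, fibroblasts and immune cells. In RNA of a whole heart, fewer cells of a type and less RNA per cell cannot be told apart.

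Depth was 13900531 to 16952639 counts per library, and mitochondrial transcripts took 37.7% to 45.5% of counts in METTL3, 28.6% to 32.5% in HFD+STZ and 9.28% to 27.4% in chow libraries, the lowest in chow replicate 3. These ranges do not overlap, and their part in the comparisons was not tested. Levels are given as counts per 1000000 (CPM) of each library's total, scaled by trimmed mean of M-values (TMM). Cardiomyocyte markers were abundant in every library, with sums of 41640.2 to 60426.9 CPM over 10 genes, the lowest in HFD+STZ replicate 1. Mettl3 itself had a mean of 8.39 ± 2.19 CPM (SD, n = 4) in METTL3, 6.35 ± 1.58 CPM (SD, n = 4) in HFD+STZ and 6.11 ± 2.67 CPM (SD, n = 3) in chow hearts, and METTL3 over HFD+STZ gave a log2 fold change of 0.40 with an SE of 0.32 (edgeR, Benjamini-Hochberg adjusted p = 0.759). The groups are therefore called by their labels, which these counts do not tell apart, and the species of the METTL3 sequence in the virus is not given. Both HFD+STZ replicate 1 and chow replicate 3 stood apart from the rest of their groups in the genes described here. Results are therefore given with and without HFD+STZ replicate 1 and, for some, without chow replicate 3. Chow replicate 3 also stood apart beyond these genes. A chi-squared per degree of freedom over the whole count table, larger where libraries differ more, was 344 and 304 against the other chow libraries. It was 15.5 to 55.2 for all other pairs within a group. The sample codes also differ: HFD+STZ replicate 1 carries code 83, METTL3 replicate 4 code 78 and the chow libraries codes 94 to 98, while all other libraries carry codes 25 to 33. The labels do not say what the codes stand for, and code range and group cannot be told apart between HFD+STZ and chow once replicate 1 is set aside.

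Of the members with a promoter entry, 11 act in S phase and 26 in mitosis, and the sets differ in some, but not all, of the promoter motifs searched. RefSeq promoters of build GRCm38.p6, each 250 bases before to 50 bases after the gene's start, were matched by symbol for 37 of the 43. Tpx2, Ccna2, Kif20a, Mcm4, Ccne2 and Aurkb had no match. A gene with several promoter entries, as for 3 members, was counted where any of them held the motif. The letters TTTGAA or TTCGAA are a form of the cell cycle homology region (CHR) that the DREAM complex is known to bind. They stood in promoters of 20 of 26 mitosis members (76.9%), 2 of 11 S phase members (18.2%) and 21.7% of 27025 genes with a promoter entry. CCAAT, the letters bound by NF-Y, stood in 19 of 26 (73.1%), 7 of 11 (63.6%) and 41.1% of these sets. An E2F motif, spelled TTTCCCGC, TTTCGCGC, TTTGCCGC or TTTGGCGC, stood in 1 of 26 (3.85%), 4 of 11 (36.4%) and 2.6%. Each motif was searched on both strands, TTCGAA, which reads alike on both, was counted once, and in the promoters printed below no match of one motif shares bases with a match of another. These counts describe letters in a window and not bound sites.

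The promoters of 4 genes are shown as examples: Top2a and Cdk1 act in mitosis, and Mcm6 and Mcm3 act in S phase. Mcm6 and Mcm3 are among the 4 of 11 S phase members that held an E2F match. All 4 genes lie on the minus strand, at chr11:99024140-99024439 for Top2a, chr10:69352863-69353162 for Cdk1, chr1:128359656-128359955 for Mcm6 and chr1:20820263-20820562 for Mcm3, and are written 5′ to 3′ along the gene. Capitals mark CHR, CCAAT and E2F matches, and a match on the other strand reads as its reverse complement, so ATTGG is CCAAT and TTCAAA is TTTGAA.
Top2a: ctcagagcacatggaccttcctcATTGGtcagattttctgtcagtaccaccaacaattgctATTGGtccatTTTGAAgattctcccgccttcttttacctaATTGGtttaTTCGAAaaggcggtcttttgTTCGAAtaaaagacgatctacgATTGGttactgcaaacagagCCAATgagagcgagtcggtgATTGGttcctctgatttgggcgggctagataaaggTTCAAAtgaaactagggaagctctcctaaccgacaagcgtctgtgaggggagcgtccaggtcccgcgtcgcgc
Cdk1: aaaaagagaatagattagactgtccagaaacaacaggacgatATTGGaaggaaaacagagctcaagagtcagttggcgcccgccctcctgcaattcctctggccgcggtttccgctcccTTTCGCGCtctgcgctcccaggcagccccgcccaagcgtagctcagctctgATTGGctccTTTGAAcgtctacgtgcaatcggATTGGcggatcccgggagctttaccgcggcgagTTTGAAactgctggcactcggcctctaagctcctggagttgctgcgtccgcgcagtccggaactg
Mcm6: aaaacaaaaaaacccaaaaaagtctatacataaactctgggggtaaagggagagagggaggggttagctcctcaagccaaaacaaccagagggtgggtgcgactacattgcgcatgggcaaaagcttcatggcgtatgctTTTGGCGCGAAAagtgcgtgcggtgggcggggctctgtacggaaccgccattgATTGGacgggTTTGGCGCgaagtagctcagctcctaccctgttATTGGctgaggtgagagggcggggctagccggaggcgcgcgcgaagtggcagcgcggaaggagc
Mcm3: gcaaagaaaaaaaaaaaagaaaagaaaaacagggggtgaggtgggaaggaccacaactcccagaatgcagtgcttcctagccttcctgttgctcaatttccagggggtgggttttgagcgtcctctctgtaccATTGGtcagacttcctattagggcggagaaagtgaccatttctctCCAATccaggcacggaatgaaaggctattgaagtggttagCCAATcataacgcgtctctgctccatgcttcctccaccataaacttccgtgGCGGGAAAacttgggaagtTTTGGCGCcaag
The Top2a window held 4 CHR and 6 CCAAT matches and no E2F match. The Cdk1 window held 2 CHR matches, 3 CCAAT matches and the single E2F match among mitosis members. Neither MCM window held a CHR match, and both held E2F matches, of which a pair in Mcm6 overlaps.

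Summed over the 43 genes, levels were 115, 139, 122 and 161 CPM in METTL3 libraries, against 264, 127, 118 and 122 CPM in HFD+STZ libraries and 143, 144 and 270.3 CPM in chow libraries. Without HFD+STZ replicate 1, the mean of the HFD+STZ libraries was 122.1 ± 4.26 CPM (SD, n = 3), and replicate 1 had 2.16 times that mean. The rest of the HFD+STZ libraries therefore lay within or close to the METTL3 range, and chow replicate 3 lay above both other chow libraries. Of the 11 libraries, HFD+STZ replicate 1 was the highest in 25 of the 40 tested members, against 6.36% of all 14862 genes tested. The filter used all libraries, and 36 members pass it without replicate 1, so some of the 40 passed only with that library. The same filter applied to all genes. Chow replicate 3 was the highest in 11 of the 40, against 26% of all genes tested, so its share among the members was close to its share among all genes.

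The summed excess in HFD+STZ replicate 1 was graded by role. Over the mean of the other 3 HFD+STZ libraries its summed level was 10.3 times as high for Mki67 and Top2a, 6.82 times for the mitotic cyclins and kinases, 5.15 times for spindle and cytokinesis genes and 4.32 times for the partners of the anaphase-promoting complex. It was 1.79 times for the MCM helicase, 1.78 times for S phase entry, 1.47 times for nucleotide supply and the sliding clamp and 1.07 times for the centromere and kinetochore genes, whose sum is mostly Cenpa. The 1.47 is likewise mostly Pcna, which was 1.35 times as high, while Rrm2 was 3.12, Tyms 2.35 and Tk1 1.19 times as high. Of S phase entry, Ccne2, the most abundant, was 1.46, E2f1 3.16 and Ccne1 1.18 times as high. Abundant genes thus set these sums, and some S phase genes rose more than their role. The mitosis members together had 42.5, 55.2, 42.2 and 73.4 CPM in METTL3 libraries, against 146, 50.2, 52.7 and 49.6 CPM in HFD+STZ libraries and 57.5, 53.3 and 121 CPM in chow libraries, whereas the S phase members had 72.8, 83.5, 80.04 and 87.9 CPM in METTL3 libraries, against 117, 76.4, 65.4 and 71.9 CPM in HFD+STZ libraries and 85.8, 90.4 and 149 CPM in chow libraries. Relative to the mean of its companions, this library had 2.88 times the summed level of the mitosis members and 1.64 times that of the S phase members.

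**Figure D1:**
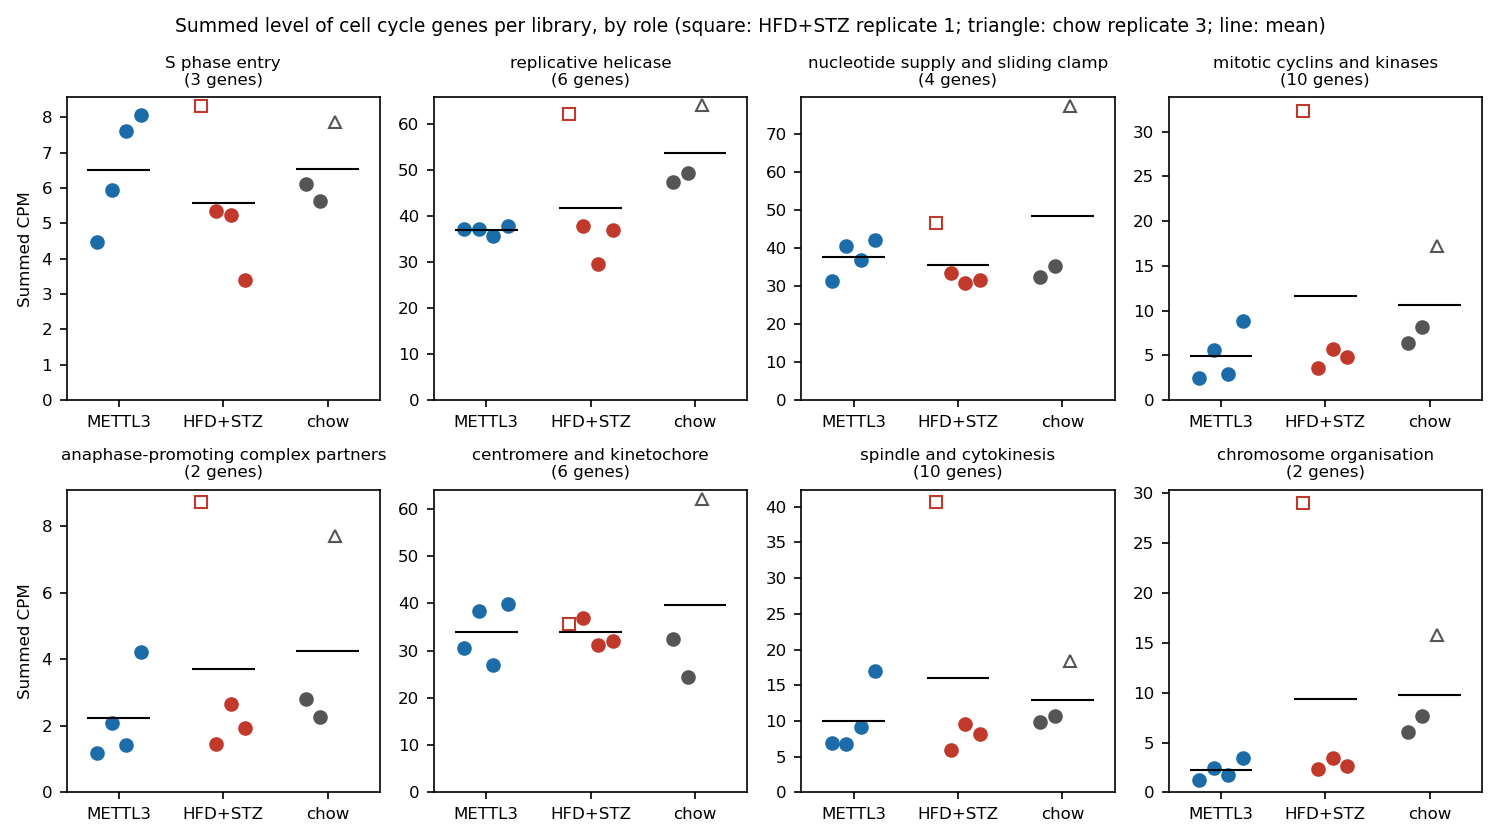
Summed level (CPM, TMM-scaled, linear axis from 0) of the members of each of 8 roles, 1 point per library, METTL3 left, HFD+STZ in the middle and chow right, with a line at each group mean, a square for HFD+STZ replicate 1 and a triangle for chow replicate 3. In HFD+STZ replicate 1 the mitotic cyclins and kinases summed to 32.3 CPM, while the other 3 HFD+STZ libraries lay between 3.65 and 5.71 CPM.

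METTL3 hearts were compared with HFD+STZ hearts to ask what the virus did on top of diet and drug. None of the 40 tested members passed the test (edgeR quasi-likelihood test, Benjamini-Hochberg adjusted over 14862 genes, of which 0% passed). DESeq2 also called 0 members, against 0.686% of all genes. The lowest adjusted p was 0.431, for Top2a. At an unadjusted p under 0.05, 1 member lay higher, Ccne2 (against 5.43% of all genes), and 5 lay lower, Cdk1, Aurkb, Bub1b, Mki67 and Top2a (against 3.63%). The median log2 fold change over the members was -0.59, beside -0.0036 over all genes, and 35 of 40 members lay below 0, against 50.4% of all genes.

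That displacement was not present without HFD+STZ replicate 1. Without it, 36 members could be tested, a smaller set than the 40 above. Their median was 0.044 and 16 of 36 lay below 0, against 49.4% of all genes. No member passed the test (edgeR, 0% of 14624 genes), 0 lay lower at an unadjusted p under 0.05 (against 4.66% of all genes), and 1 lay higher (against 6.35%), which was Ccne2 again. Among the libraries with codes 25 to 33 alone, 3 METTL3 and 3 HFD+STZ, the median was -0.10, and in the range of 78 to 98 each group has 1 library, which allows no test. In no member did the 4 METTL3 libraries lie wholly above or wholly below the 4 HFD+STZ libraries, against 5.43% of all genes higher and 4.14% lower. Since no label says where replicates came from, a p-value covers the spread of these samples alone, part or all of which may be technical.

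**Figure D2:**
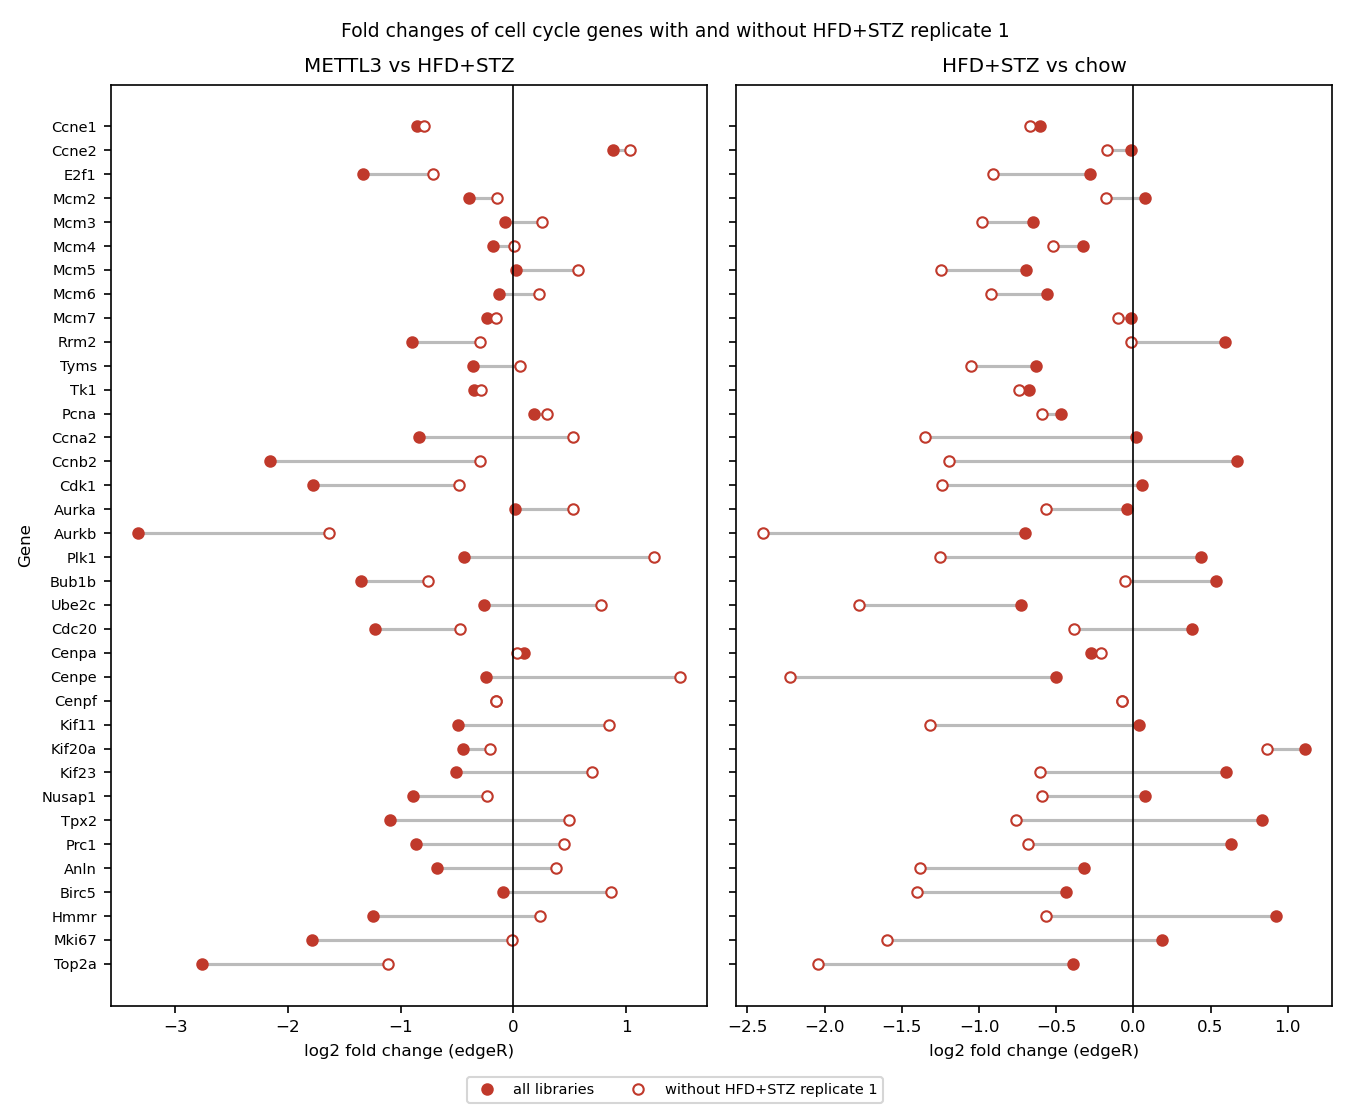
Log2 fold change of the 36 members tested in both fits, METTL3 over HFD+STZ on the left and HFD+STZ over chow on the right, with filled points for all libraries and open points without HFD+STZ replicate 1. On the left the open points centre on 0, with a median of 0.04, and on the right 35 of 36 open points lie below 0.

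**Figure D3:**
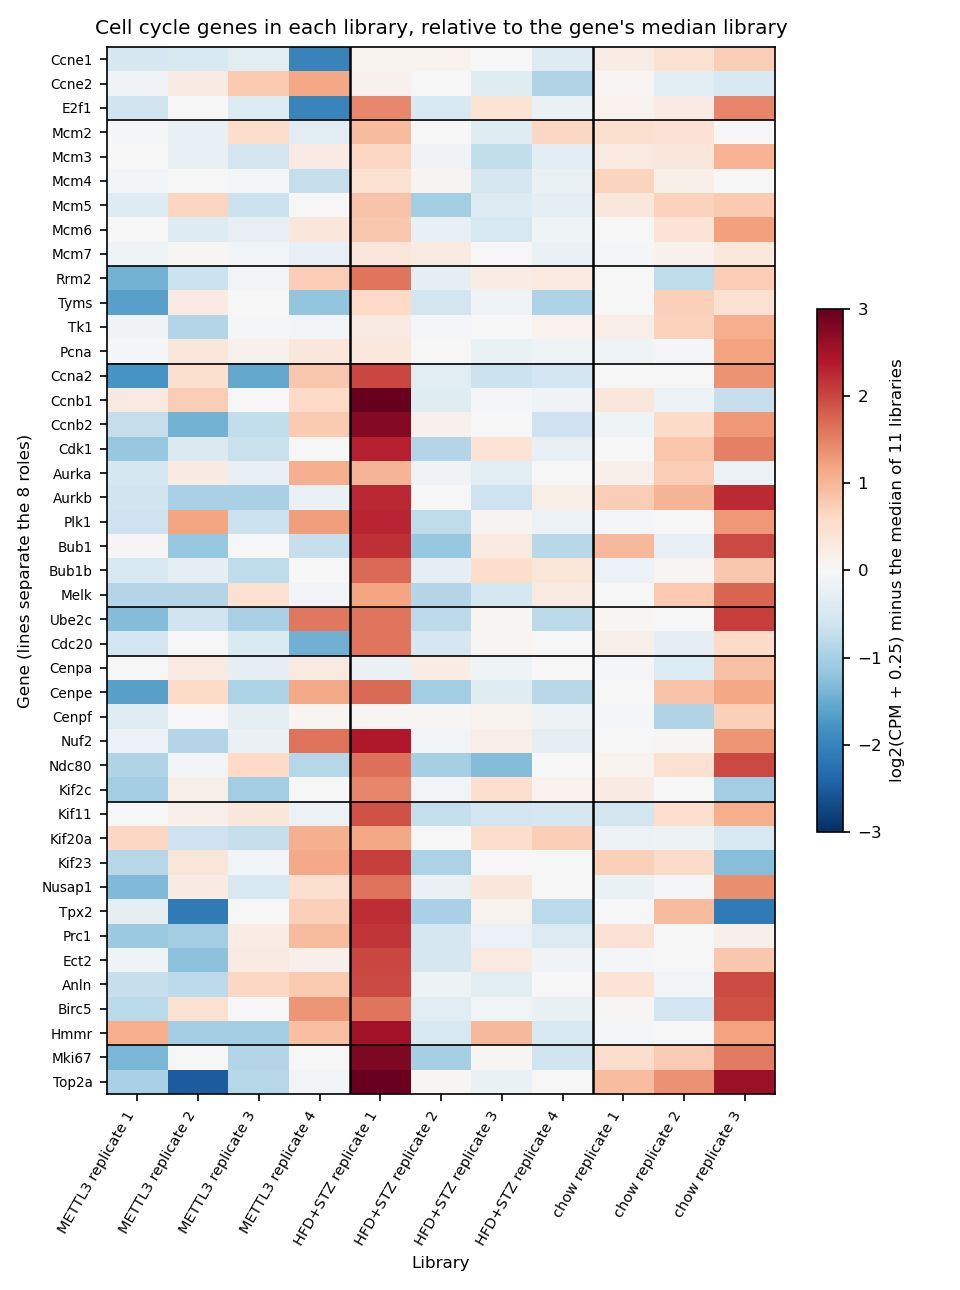
Level of each of the 43 genes (rows, by role) in each of the 11 libraries (columns, METTL3, HFD+STZ, chow), as log2 of CPM + 0.25 minus the gene's median over the 11 libraries. HFD+STZ replicate 1 is above the median in nearly all rows of the mitotic roles, and Cenpa, Cenpf, Ccne1 and Tk1 are among the rows where it differs little from the other HFD+STZ libraries.

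Of the genes of S phase entry, Ccne2, an E-type cyclin, had 3.13, 4.10, 6.04 and 7.89 CPM in METTL3 libraries, against 3.74, 3.41, 2.58 and 1.70 CPM in HFD+STZ libraries and 3.58, 2.69 and 2.42 CPM in chow libraries. Its highest levels were in METTL3 replicates 3 and 4, and the METTL3 range overlapped the HFD+STZ range only between 3.13 and 3.74 CPM. METTL3 over HFD+STZ gave a log2 fold change of 0.88 (SE 0.35, adjusted p = 0.505, edgeR) and 1.03 without HFD+STZ replicate 1. Ccne2 overlaps Ints8, a subunit gene of the Integrator complex on the opposite strand, over 5622 bases, and the strand setting of the counting is not given, so reads of both cannot be told apart. Ints8 had a mean of 22.02 ± 1.85 CPM (SD, n = 4) in METTL3, 14.2 ± 3.93 CPM (SD, n = 4) in HFD+STZ and 13.1 ± 8.71 CPM (SD, n = 3) in chow hearts, and so was also highest in METTL3.

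The other E-type cyclin ran the other way. Ccne1 had 0.705, 0.752, 0.831 and 0.0896 CPM in METTL3 libraries, against 1.23, 1.22, 1.12 and 0.791 CPM in HFD+STZ libraries and 1.35, 1.61 and 2.03 CPM in chow libraries. All METTL3 libraries and all HFD+STZ libraries lay below all chow libraries, and METTL3 replicate 4 stood far below its group. E2f1, a transcription factor that activates S phase genes, had 0.627, 1.09, 0.755 and 0.0896 CPM in METTL3 libraries, against 3.35, 0.730, 1.53 and 0.913 CPM in HFD+STZ libraries and 1.19, 1.34 and 3.43 CPM in chow libraries. The top of its range was shared by HFD+STZ replicate 1 and chow replicate 3.

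The MCM genes, which encode the subunits of the replicative helicase, were among the most abundant members. Per kb of transcript, Pcna had the highest mean level over all libraries, 14.0 CPM per kb, followed by Cenpa at 4.54, Mcm6 at 2.44, Mcm4 at 2.07, Mcm7 at 1.93, Mcm3 at 1.89 and Ccne2 at 1.07 CPM per kb, and the lowest was Kif2c, a microtubule-depolymerising kinesin, at 0.0717 CPM per kb. Without HFD+STZ replicate 1 the lowest was Ccnb1 at 0.0439 CPM per kb, with Kif2c at 0.0520. Mcm6 had 9.87, 7.44, 8.23 and 12.5 CPM in METTL3 libraries, against 17.2, 8.33, 6.97 and 8.95 CPM in HFD+STZ libraries and 9.74, 12.96 and 23.2 CPM in chow libraries. The highest levels were in chow replicate 3 and HFD+STZ replicate 1, and the other HFD+STZ libraries overlapped METTL3. Mcm7 had 7.52, 8.44, 7.78 and 6.90 CPM in METTL3 libraries, against 10.6, 9.97, 8.22 and 7.18 CPM in HFD+STZ libraries and 7.98, 8.98 and 10.2 CPM in chow libraries. Its 3 groups overlapped. Mcm4 had 6.82, 7.27, 7.10 and 4.30 CPM in METTL3 libraries, against 9.996, 7.66, 5.02 and 6.27 CPM in HFD+STZ libraries and 11.7, 8.23 and 7.32 CPM in chow libraries. Here HFD+STZ replicate 1 was within the chow range, and all METTL3 libraries lay below all chow libraries. Mcm3 had 6.42, 5.43, 4.23 and 7.71 CPM in METTL3 libraries, against 10.1, 5.96, 3.76 and 5.11 CPM in HFD+STZ libraries and 7.77, 8.17 and 13.5 CPM in chow libraries. Again METTL3 lay wholly below chow. Mcm2 and Mcm5 lay between 1.34 and 8.77 CPM over all libraries. Across the 6 MCM genes the median of the log2 fold changes, METTL3 over HFD+STZ, was -0.16, and 0.11 without HFD+STZ replicate 1.

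Pcna encodes the sliding clamp of DNA polymerases, and the other genes of this role supply nucleotides. Pcna had 28.3, 36.4, 31.4 and 36.6 CPM in METTL3 libraries, against 36.2, 28.8, 24.95 and 26.4 CPM in HFD+STZ libraries and 26.4, 27.6 and 66.9 CPM in chow libraries. Chow replicate 3 was far above every other library, and both other chow libraries lay below all METTL3 libraries, while the HFD+STZ libraries overlapped both groups. Tk1, the cytosolic thymidine kinase, had 2.19, 1.17, 2.27 and 2.24 CPM in METTL3 libraries, against 2.85, 2.25, 2.37 and 2.56 CPM in HFD+STZ libraries and 2.75, 3.98 and 5.29 CPM in chow libraries. Every METTL3 library and, but for HFD+STZ replicate 1, every HFD+STZ library lay below the chow range. Rrm2, the small subunit of ribonucleotide reductase, had 0.392, 0.836, 1.36 and 2.60 CPM in METTL3 libraries, against 4.91, 1.16, 1.74 and 1.83 CPM in HFD+STZ libraries and 1.45, 0.753 and 2.59 CPM in chow libraries. Here the highest was HFD+STZ replicate 1, and the 4 METTL3 libraries spread over the range of the others. Tyms, thymidylate synthase, lay between 0.392 and 3.01 CPM.

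Cdk1, the kinase that drives entry into mitosis, and its cyclins were far higher in HFD+STZ replicate 1 than in its companions. Cdk1 had 0.313, 0.669, 0.529 and 0.986 CPM in METTL3 libraries, against 5.92, 0.426, 1.39 and 0.791 CPM in HFD+STZ libraries and 0.985, 1.94 and 3.26 CPM in chow libraries. METTL3 over HFD+STZ gave a log2 fold change of -1.78 (SE 0.78, adjusted p = 0.534, edgeR) and -0.48 without HFD+STZ replicate 1. Replicate 1 alone set the HFD+STZ mean apart, and its 3 companions overlapped METTL3. Ccna2, cyclin A2, had 0.157, 1.67, 0.227 and 2.15 CPM in METTL3 libraries, against 5.25, 0.851, 0.627 and 0.670 CPM in HFD+STZ libraries and 1.14, 1.13 and 3.26 CPM in chow libraries. The log2 fold change of METTL3 over HFD+STZ was -0.84 and turned to 0.53 without HFD+STZ replicate 1. Ccnb2, a B-type cyclin, had 0.157, 0, 0.151 and 0.896 CPM in METTL3 libraries, against 4.24, 0.486, 0.418 and 0.183 CPM in HFD+STZ libraries and 0.363, 0.753 and 1.41 CPM in chow libraries. Ccnb1, the other B-type cyclin, was too low to test, with 59 counts in HFD+STZ replicate 1 and 0 to 5 counts in each of the other 10 libraries. Its level in replicate 1 was 3.29 CPM, 30.7 times the mean of the other HFD+STZ libraries, which had 1, 2 and 2 counts, and chow replicate 3, high in many members, had 0.

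Kinases of mitosis and its checkpoint form the next role. Aurkb, the kinase of the chromosomal passenger complex, had 1, 0, 0 and 2 counts in METTL3 libraries, against 38, 4, 1 and 5 counts in HFD+STZ libraries and 11, 14 and 37 counts in chow libraries. Its summed rate in METTL3 over HFD+STZ was 0.0828 (exact conditional 95% interval 0.0165 to 0.257), over HFD+STZ without replicate 1 0.288 (exact conditional 95% interval 0.0510 to 1.12) and over chow 0.0548 (exact conditional 95% interval 0.0110 to 0.168), where the intervals cover counting error only. The METTL3 counts were few in all 4 libraries, and those of 3 HFD+STZ libraries were few as well. Bub1b, a spindle checkpoint kinase, had 0.705, 0.836, 0.529 and 1.08 CPM in METTL3 libraries, against 4.02, 0.851, 1.67 and 1.46 CPM in HFD+STZ libraries and 0.933, 1.13 and 2.08 CPM in chow libraries. METTL3 over HFD+STZ gave a log2 fold change of -1.35 (SE 0.55, adjusted p = 0.509, edgeR) and -0.76 without HFD+STZ replicate 1. Aurka, Plk1, Bub1 and Melk, which are further mitotic kinases, had 1.62, 2.79, 2.29 and 0.782 CPM in HFD+STZ replicate 1, 2.75, 9.92, 14.3 and 6.27 times the mean of its companions. Aurka was the mitotic kinase in which METTL3 replicate 4 (1.70 CPM) exceeded HFD+STZ replicate 1.

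Ube2c and Cdc20 work with the anaphase-promoting complex, the first as its ubiquitin-conjugating enzyme and the second as its activator. Ube2c had 0.313, 0.669, 0.453 and 3.85 CPM in METTL3 libraries, against 3.96, 0.547, 1.18 and 0.548 CPM in HFD+STZ libraries and 1.19, 1.13 and 5.52 CPM in chow libraries. METTL3 replicate 4, HFD+STZ replicate 1 and chow replicate 3 were each far above their groups. Cdc20 had 0.862, 1.42, 0.982 and 0.358 CPM in METTL3 libraries, against 4.75, 0.912, 1.46 and 1.40 CPM in HFD+STZ libraries and 1.61, 1.13 and 2.20 CPM in chow libraries. Here HFD+STZ replicate 1 alone stood out. The log2 fold change of METTL3 over HFD+STZ was -0.26 for Ube2c and -1.23 for Cdc20, and 0.78 and -0.47 without HFD+STZ replicate 1.

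Centromere and kinetochore genes split into a pair that did not stand out in HFD+STZ replicate 1 and others that did. Cenpa, the histone H3 variant of centromeres, had 25.1, 29.9, 20.4 and 29.7 CPM in METTL3 libraries, against 21.4, 29.2, 22.7 and 24.8 CPM in HFD+STZ libraries and 24.3, 18.8 and 46.2 CPM in chow libraries. In HFD+STZ replicate 1 it lay below the companions' mean (0.838 times), and chow replicate 3 was the highest. Cenpf had 5.25, 6.85, 5.59 and 7.17 CPM in METTL3 libraries, against 6.98, 7.05, 7.39 and 6.15 CPM in HFD+STZ libraries and 6.74, 3.55 and 11.5 CPM in chow libraries. Its ratio in HFD+STZ replicate 1 was 1.02. Cenpe, a kinesin of the kinetochore, had 0, 0.919, 0.151 and 1.43 CPM in METTL3 libraries, against 2.23, 0.122, 0.348 and 0.183 CPM in HFD+STZ libraries and 0.518, 1.13 and 1.46 CPM in chow libraries. That level was 10.3 times the mean of the other HFD+STZ libraries, and Nuf2 and Ndc80, which form a complex that holds microtubules at the kinetochore, had 11.2 and 11.8 times theirs. Kif2c was 3.40 times as high.

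Spindle and cytokinesis genes were higher in HFD+STZ replicate 1 than in each of the other HFD+STZ libraries in 10 of 10. Anln, anillin of the contractile ring, had 0.548, 0.501, 1.74 and 1.97 CPM in METTL3 libraries, against 4.86, 0.912, 0.767 and 1.03 CPM in HFD+STZ libraries and 1.45, 0.968 and 4.73 CPM in chow libraries. Kif11, the kinesin that pushes spindle poles apart, had 1.25, 1.42, 1.66 and 1.08 CPM in METTL3 libraries, against 5.36, 0.669, 0.767 and 0.791 CPM in HFD+STZ libraries and 0.777, 1.88 and 2.93 CPM in chow libraries. The 3 other HFD+STZ libraries lay below every METTL3 library for Kif11, so that METTL3 over HFD+STZ gave a log2 fold change of -0.49 with all libraries and 0.85 without HFD+STZ replicate 1 (adjusted p = 0.597, edgeR). Nusap1, a microtubule-binding protein of the spindle, had 0.313, 1.42, 0.755 and 1.70 CPM in METTL3 libraries, against 4.08, 0.973, 1.53 and 1.16 CPM in HFD+STZ libraries and 0.985, 1.13 and 3.43 CPM in chow libraries. Kif20a, a kinesin of cytokinesis, had 1.72, 0.585, 0.529 and 2.42 CPM in METTL3 libraries, against 2.62, 1.03, 1.60 and 1.89 CPM in HFD+STZ libraries and 0.881, 0.914 and 0.675 CPM in chow libraries. Kif20a was the member in which all HFD+STZ libraries, replicate 1 or not, lay above all chow libraries. It overlaps Cdc23, a subunit of the anaphase-promoting complex, over 2315 bases on the opposite strand. Cdc23 had a mean of 23.3 ± 2.90 CPM (SD, n = 4) in METTL3, 22.8 ± 2.32 CPM (SD, n = 4) in HFD+STZ and 22.3 ± 10.4 CPM (SD, n = 3) in chow hearts. Kif23, Tpx2, Prc1, Ect2, Birc5 and Hmmr had 5.19, 4.75, 5.81, 2.90, 2.35 and 2.74 CPM in HFD+STZ replicate 1, which was 6.22, 9.04, 6.98, 5.85, 4.79 and 8.13 times the mean of its companions in that order.

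Mki67 encodes the Ki-67 protein that coats mitotic chromosomes, and Top2a the topoisomerase that untangles them. Mki67 had 0.783, 2.42, 1.21 and 2.42 CPM in METTL3 libraries, against 18.3, 1.09, 2.51 and 1.52 CPM in HFD+STZ libraries and 3.58, 4.25 and 7.66 CPM in chow libraries. The level in HFD+STZ replicate 1 was 10.7 times the mean of its companions, which overlapped METTL3 and lay below all chow libraries. METTL3 over HFD+STZ gave a log2 fold change of -1.78 (SE 0.80, adjusted p = 0.534, edgeR) and -0.0082 without HFD+STZ replicate 1. Top2a had 0.470, 0, 0.529 and 1.08 CPM in METTL3 libraries, against 10.7, 1.22, 0.976 and 1.16 CPM in HFD+STZ libraries and 2.44, 3.39 and 8.11 CPM in chow libraries. Here replicate 1 had 9.61 times the mean of its companions, and in METTL3 replicate 2 no read was counted. METTL3 over HFD+STZ gave a log2 fold change of -2.76 (SE 0.95, adjusted p = 0.431, edgeR) and -1.11 without HFD+STZ replicate 1, with a 95% interval of -4.82 to -0.70 for all libraries. The METTL3 libraries lay below all HFD+STZ libraries but for METTL3 replicate 4, which fell between HFD+STZ replicates 3 and 4.

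HFD+STZ hearts were compared with chow hearts to ask what diet and drug did. No member passed the test by edgeR or DESeq2, while 0.168% of all genes passed by edgeR and 2.07% by DESeq2. At an unadjusted p under 0.05, 0 members lay higher, against 5.58% of all genes, and 0 lower, against 6.53%. The median over the members was -0.031, beside -0.018 over all genes, and 22 of 40 lay below 0, against 51.6% of all genes. Groups did not overlap for Kif20a, higher in HFD+STZ (1 of 40, against 5.52% of all genes), and for Ccne1, lower (1 of 40, against 4.88%). The highest log2 fold change was that of Kif20a, 1.11 (SE 0.60, adjusted p = 0.456, edgeR), and the lowest that of Ndc80, -0.98 (SE 1.12, adjusted p = 0.723).

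Without HFD+STZ replicate 1 the members lay lower in HFD+STZ hearts. The median became -0.75, beside -0.038 over all genes, and 35 of 36 members lay below 0, against 52.8% of all genes. No member passed the test (edgeR, 1.47% of all genes), and 7 lay lower at an unadjusted p under 0.05, Mcm3, Mcm5, Mcm6, Aurkb, Kif11, Mki67 and Top2a (against 8.11% of all genes). In 12 of 36 members the 3 remaining HFD+STZ libraries lay wholly below the chow libraries, against 11.8% of all genes. Mki67 gave a log2 fold change of -1.59 (adjusted p = 0.174, edgeR) against 0.19 with all libraries, and Top2a -2.05 (adjusted p = 0.227, edgeR) against -0.39.

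The size of this difference also rested on chow replicate 3. For HFD+STZ over chow, the members' median was 0.40 without chow replicate 3 and -0.50 without both. Leaving out chow replicate 1 or 2 instead gave -0.21 in each case, and leaving out HFD+STZ replicate 3 gave 0.026. With sample code range as a covariate it was 0.77, a fit in which HFD+STZ replicate 1 and METTL3 replicate 4 are the libraries that share a code range with chow. The direction between HFD+STZ and chow thus depended on which single library was left out.

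METTL3 hearts were last set beside chow hearts. No member passed the test (edgeR, 3.2% of all genes), with lowest adjusted p-values of 0.0932 for Aurkb and 0.0952 for Top2a, whereas DESeq2 called 3 lower, Top2a (adjusted p = 0.0135), Aurkb (0.0266) and Tk1 (0.0458), against 10.2% of all genes called by DESeq2 in either direction. At an unadjusted p under 0.05 by edgeR, 1 member lay higher, Ccne2 (against 10.6% of all genes), and 5 lower, Ccne1, E2f1, Tk1, Aurkb and Top2a (against 11.1%). The median was -0.68, beside -0.011 over all genes, and 37 of 40 members lay below 0, against 50.8% of all genes. In 8 of 40 the METTL3 libraries lay wholly below the chow libraries, namely Ccne1, E2f1, Mcm3, Mcm4, Tk1, Aurkb, Mki67 and Top2a, against 8.26% of all genes.

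The members that lay wholly below chow came from S phase as well as mitosis. As log2 fold changes of METTL3 over chow, Top2a gave -3.15 (SE 0.99, adjusted p = 0.0952, edgeR), and Mki67 gave -1.60 (SE 0.84, adjusted p = 0.29, edgeR). Among S phase genes, Ccne1 gave -1.46 (SE 0.58, adjusted p = 0.166, edgeR), E2f1 gave -1.62 (SE 0.72, adjusted p = 0.216, edgeR) and Tk1 gave -1.02 (SE 0.35, adjusted p = 0.12, edgeR). Ccne2, the member farthest to the other side, gave 0.87 (SE 0.39, adjusted p = 0.215, edgeR). The fold of Aurkb rests on 3 METTL3 counts and is given above as a ratio of rates.

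In METTL3 against chow, HFD+STZ replicate 1 is in neither group, but leaving it out changes the genes tested (14624, against 14862), the scaling and the shared estimate of the spread. Without it, Top2a fell in METTL3 hearts (log2 fold change -3.16, adjusted p = 0.0428, edgeR), 1 of 36 members, against 3.46% of all genes. At an unadjusted p under 0.05, 9 of 36 lay lower, against 11.4% of all genes, and 33 of 36 lay below 0, against 51.3%, with a median of -0.68. The median was -0.33 without chow replicate 3 and 0.12 with code range as a covariate. METTL3 against chow and HFD+STZ against chow share the chow libraries, so the values of the same member in both are not independent.

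Other genes of the cell cycle were read from 8 further lists. Of 54 other mitotic genes 37 were tested, with medians of -0.48 for METTL3 over HFD+STZ (0.18 without HFD+STZ replicate 1), 0.044 for HFD+STZ over chow (-0.54) and -0.59 for METTL3 over chow (-0.57), which followed the members. Genes of replication origin and fork (35 of 39 tested) had medians of -0.0097 for METTL3 over HFD+STZ (0.17 without HFD+STZ replicate 1), -0.12 for HFD+STZ over chow (-0.31) and -0.15 for METTL3 over chow (-0.15). Condensin and cohesin genes (15 of 16 tested) had medians of 0.20 for METTL3 over HFD+STZ (0.28 without HFD+STZ replicate 1), 0.12 for HFD+STZ over chow (0.047) and 0.34 for METTL3 over chow (0.33). Replication-dependent histones, which cells in S phase make in bulk, summed to 187, 171, 159 and 148 CPM in METTL3 libraries, against 158, 197, 173 and 166 CPM in HFD+STZ libraries and 152, 137 and 208 CPM in chow libraries, with HFD+STZ replicate 1 the lowest of its group. That rank depended on the scaling: without TMM the HFD+STZ libraries had 179.8, 190.9, 160.02 and 169.8 CPM, and replicate 1 was second highest. The remaining lists, E2F and DREAM complex (15 of 16 tested), DNA damage checkpoint (16 of 21), G1 cyclins, kinases and pocket proteins (11 of 11) and CDK inhibitors (7 of 8), had medians of -0.063, 0.044, -0.13 and -0.26 for METTL3 over HFD+STZ in that order, and -0.0014, 0.12, -0.042 and -0.19 without HFD+STZ replicate 1.

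Of 149 genes of these lists tested by edgeR, 0 passed in METTL3 over HFD+STZ (0% of all genes), with 10 higher (5.43% of all genes) and 4 lower (3.63%) at an unadjusted p under 0.05, and DESeq2 called 1, Orc3 (0.686% of all genes). In HFD+STZ over chow 0 passed by edgeR (0.168% of all genes), with 3 higher (5.58%) and 7 lower (6.53%) at an unadjusted p under 0.05, and DESeq2 called 3, Cdkn1a, Cdkn1c and Tfdp2 (2.07%). In METTL3 over chow 4 passed by edgeR (3.2% of all genes), and DESeq2 called 9 higher and 7 lower (10.2% in either direction), so both counts are near the share of all genes. Rb1, the pocket protein that restrains E2F, rose (0.68, SE 0.16, adjusted p = 0.0407, edgeR), as did Orc3, an origin recognition subunit (0.58, adjusted p = 0.0487, edgeR). Lmnb1, lamin B1 of the nuclear envelope, fell (-1.77, adjusted p = 0.047, edgeR), as did Gadd45a, a stress-induced growth arrest gene (-1.64, adjusted p = 0.043, edgeR). None of these 4 calls held with each library left out in turn. Orc3 was lost without any 1 of the 11 libraries (adjusted p of 0.0511 to 0.116, edgeR), and Lmnb1 (0.0212 to 0.113) and Gadd45a (0.0268 to 0.112) without any 1 but chow replicate 1 and HFD+STZ replicate 1. Rb1 (0.038 to 0.11) was lost without METTL3 replicate 1, 3 or 4, HFD+STZ replicate 2, 3 or 4, or chow replicate 2.

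Cdkn1a encodes the CDK inhibitor p21. Cdkn1a had 45.2, 44.3, 62.1 and 60.7 CPM in METTL3 libraries, against 20.3, 114, 87.1 and 61.5 CPM in HFD+STZ libraries and 8.29, 13.7 and 21.2 CPM in chow libraries. All METTL3 libraries lay above all chow libraries, and HFD+STZ replicate 1 lay within the chow range. HFD+STZ over chow gave a log2 fold change of 2.30 (adjusted p = 0.0838, edgeR), and it rose without HFD+STZ replicate 1 (2.61, adjusted p = 0.0052, edgeR), without chow replicate 3 (adjusted p = 0.0363, edgeR) and by DESeq2 (adjusted p = 0.000161). METTL3 over chow gave 1.88 (adjusted p = 0.0506, edgeR), and it too rose without HFD+STZ replicate 1 (adjusted p = 0.0158, edgeR). METTL3 over HFD+STZ gave -0.42 (adjusted p = 0.81, edgeR).

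HFD+STZ replicate 1 also stood apart from its group in other genes of the cycle. Mycn, a MYC family transcription factor, had 0.705, 1.42, 1.36 and 2.87 CPM in METTL3 libraries, against 9.77, 0.912, 0.627 and 0.670 CPM in HFD+STZ libraries and 6.58, 5.16 and 3.10 CPM in chow libraries. HFD+STZ over chow for Mycn gave -0.71 (adjusted p = 0.731, edgeR), and without HFD+STZ replicate 1 it fell (-2.73, adjusted p = 0.0344, edgeR). Lmnb1 had 1.33, 1.59, 1.96 and 2.60 CPM in METTL3 libraries, against 8.38, 3.34, 2.93 and 2.68 CPM in HFD+STZ libraries and 5.39, 5.27 and 8.50 CPM in chow libraries. In Cdkn1a and Lmnb1 the library labelled HFD+STZ replicate 1 lay within the chow range, and in Mycn above it, in each case outside the range of the other HFD+STZ libraries. Its mitochondrial share, 30.6%, lay within the range of the other HFD+STZ libraries. Its B cell markers, at 10.2 CPM, lay below all chow libraries. The cause of these differences was not tested.

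Markers of cell types were read beside these values. Fibroblast markers summed to 1647, 1382, 2254 and 1649.5 CPM in METTL3 libraries, against 2674, 1032, 1308 and 1202 CPM in HFD+STZ libraries and 1721, 2029 and 2433 CPM in chow libraries, with HFD+STZ replicate 1 the highest of all and 4 of 10 genes highest there, Col1a1, Lum, Dpt and Postn. Mesothelial markers summed to 19.4 CPM in HFD+STZ replicate 1, against 7.53 to 10.8 CPM in the other HFD+STZ libraries, but most of its counts came from Wt1 (297 counts), while Msln, Upk3b and Krt8, at 5, 11 and 2 counts, were each higher in another HFD+STZ library. Cardiomyocyte markers were 0.723 times the mean of the other HFD+STZ libraries in replicate 1, and endothelial markers, at 2019 CPM, lay within the range of those libraries. Without TMM, endothelial markers were at 2293 CPM in replicate 1 and above the other HFD+STZ libraries, at 1269 to 2114 CPM. Smooth muscle and pericyte markers were at 1796 CPM in replicate 1, against 1243 to 1757 CPM in the other HFD+STZ libraries. Plasma cell markers were at 109.8 CPM, the highest of all libraries, against 78.6 to 91.0 CPM in the other HFD+STZ libraries. The fibroblast sum was thus 1 of several list sums above the other HFD+STZ libraries here, and the part of these lists in the result was not tested.

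Markers of blood cells were mixed. T cell markers summed to 1.51 CPM in HFD+STZ replicate 1, with 6 of 12 at 0 there, against 1.6 to 1.82 CPM in the other HFD+STZ libraries. No T cell marker had more than 13 counts in replicate 1. Without TMM their sum of 1.71 CPM lay within the range of the other HFD+STZ libraries, 1.48 to 1.77 CPM. Of the thymocyte markers Rag1, Rag2, Dntt, Ptcra and Themis had at most 3 counts in any library. B cell markers summed to 10.2 CPM in HFD+STZ replicate 1, against 6.88 to 8.71 CPM in the other HFD+STZ libraries and 19.5 to 24.3 CPM in chow. Blood progenitor markers summed to 270.3 CPM, against 158.9 to 185.4 CPM in the other HFD+STZ libraries, while Mpo, Elane, Prtn3, Ctsg and Gata1 had at most 3 counts in any library. Neutrophil markers were at 7.59 CPM, against 3.47 to 48.9 CPM, and macrophage and monocyte markers at 438.6 CPM, against 284.9 to 678.1 CPM. In chow replicate 3, the other library with high members, macrophage and monocyte markers were at 897.9 CPM and fibroblast markers at 2433 CPM, above both other chow libraries. Erythroid markers were at 2251 CPM in chow replicate 3, against 425.0 and 337.9 CPM in the other chow libraries, and adipocyte markers at 1296 CPM, against 286.3 and 426.8 CPM. It also had the fewest genes with a count, 15734, against 17317 to 20769 in the other libraries, and the part of these values in its levels was not tested.

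Some marker lists also separated the groups. Macrophage and monocyte markers summed to 334.1, 285.4, 336.3 and 191.8 CPM in METTL3 libraries, against 452.8, 633.7 and 897.9 CPM in chow libraries. B cell markers summed to 10.1, 8.27, 6.04 and 5.11 CPM in METTL3 libraries, against 19.5, 20.6 and 24.3 CPM in chow libraries. Both lists were thus wholly lower in METTL3 than in chow under each of 3 scalings (TMM, TMM over nuclear genes, and no TMM). HFD+STZ lay wholly below chow in B cell markers, and without replicate 1 also in fibroblast and blood progenitor markers, again under each scaling. Of the 10 blood progenitor markers 4 passed the filter and 5 had at most 3 counts in any library, so that sum rests on few genes. For METTL3 against HFD+STZ no list separated all libraries under each scaling, and without HFD+STZ replicate 1 cardiomyocyte markers were wholly lower in METTL3, at 47029 to 51835 CPM, against 53539 to 60427 CPM in HFD+STZ libraries. The part of these lists in the members' differences was not tested.

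**Figure D4:**
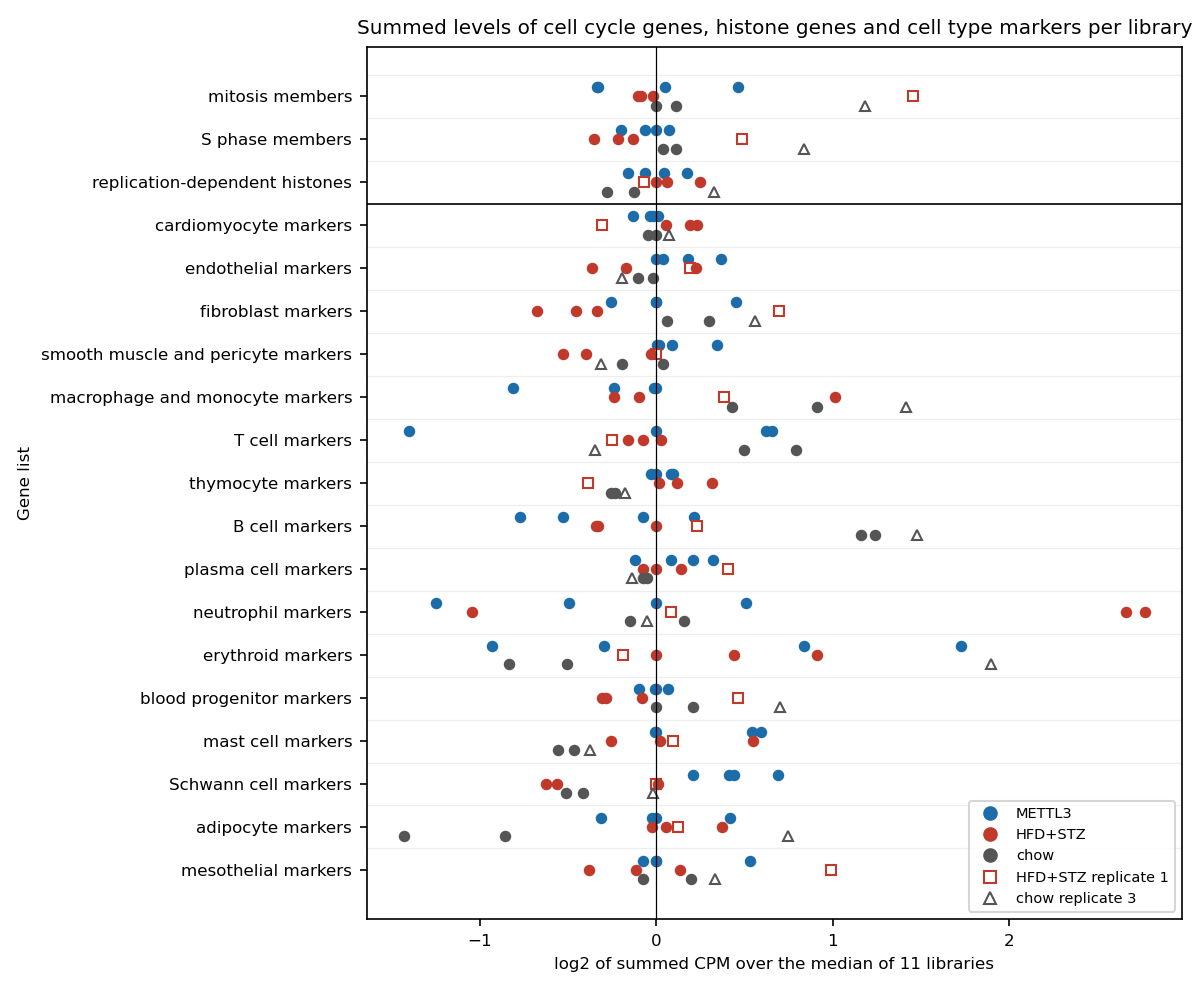
Log2 of the summed CPM over its median of the 11 libraries (horizontal axis) for the mitosis members, the S phase members, the histones and 16 marker lists (rows). Each point is a library, coloured by group (METTL3, HFD+STZ, chow), with a square for HFD+STZ replicate 1 and a triangle for chow replicate 3. HFD+STZ replicate 1 is high in the mitosis members at 146.4 CPM and in fibroblast markers at 2674 CPM. T cell markers, which have few counts, are at 1.51 CPM there.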

How the data were processed

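RNA of 11 samples of whole mouse heart was sequenced. Per the labels' protocols, RNA was taken from frozen hearts with Trizol, depleted of ribosomal RNA (RiboZero) and made into libraries with a NEB kit. The authors deposited whole-number counts per gene and library. Salmon, FastQC and mm10 are listed, with no version, per the submitters' processing notes. The annotation, the use of strand and the counting of shared reads were not given in the sources used here. Of 54532 genes in the deposited table, 27293 had 0 counts everywhere. Groups and replicate numbers come from the titles. The test was edgeR's quasi-likelihood test (edgeR 4.0.16, R 4.3.3) on TMM-scaled counts, with a mean per group over all 11 libraries, genes kept by filterByExpr (count minimum 10, total minimum 15) and Benjamini-Hochberg adjustment over 14862 genes at a threshold of 0.05. DESeq2 1.42.0 was an alternative, with other filters, scalings, covariates and libraries left out. Fits were tested on simulated counts. Standard errors are the fold change over the root of F. Depth was 13900531 to 16952639 counts, and intervals of single libraries cover counting error only. Same-numbered libraries did not deviate together (correlations of -0.23 to 0.16 over 10 pairs, of which 2 exceeded 0.1), so the main fit has no block. No pair of libraries agreed within sampling noise. Values of each library were given for up to 3 members per role by mean CPM, for members whose groups did not overlap in METTL3 over HFD+STZ or HFD+STZ over chow, for those passing a test and for the extremes of each comparison, and further members were named after their values were seen. The members, the pathway and marker lists and this rule were chosen with earlier results of these data known. Aurkb ratios have an exact conditional binomial interval on summed counts. Promoter letters come from RefSeq, and motifs were searched in Python 3.11.15.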

Additional observations from a re-analysis of the deposited data

Results flagged for a closer look

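In groups of 4, a library was picked out where its gap to the nearest other library took up more of the group's range than Dixon's 95% critical value allows. The 43 genes and their sum were checked in METTL3 and HFD+STZ hearts, 88 groups in all. Where values are normally distributed, chance picks out about 1 in 20 groups. That shape was not tested here, and some members have few counts, such as Nuf2 with 2, 0, 2 and 13 in METTL3 libraries. The rate is thus no measure of how many picks to expect. HFD+STZ replicate 1 had already stood apart in these same values, so its picks are not separate evidence. The genes are not independent, since they are read from the same libraries.

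In METTL3 hearts replicate 4 was far below the others in Ccne1 (0.0896 CPM) and Mcm4 (4.30 CPM) and far above them in Ube2c (3.85 CPM) and Nuf2 (1.16 CPM), and replicate 2 was far below in Tk1 (1.17 CPM). In HFD+STZ hearts it was replicate 1 in every case, always as the highest. Among mitotic cyclins and kinases these were Ccna2 (5.25 CPM), Ccnb1 (3.29 CPM), Ccnb2 (4.24 CPM), Aurka (1.62 CPM), Aurkb (2.12 CPM) and Plk1 (2.79 CPM). At the anaphase-promoting complex, centromere and kinetochore they were Cdc20 (4.75 CPM), Cenpe (2.23 CPM) and Nuf2 (2.18 CPM). Among spindle and cytokinesis genes they were Kif11 (5.36 CPM), Kif23 (5.19 CPM), Tpx2 (4.75 CPM), Prc1 (5.81 CPM), Ect2 (2.90 CPM), Anln (4.86 CPM) and Birc5 (2.35 CPM). Mki67 (18.3 CPM), Top2a (10.7 CPM) and the sum over the 43 genes (263.5 CPM) were picked out as well. No gene of S phase entry, the MCM helicase or nucleotide supply was picked out in HFD+STZ hearts.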

How the results depend on the processing

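Under the alternatives tried, members called stayed at 0 in METTL3 over HFD+STZ and in HFD+STZ over chow. In METTL3 over chow they were 3 by DESeq2, 1 with no filter, 1 without HFD+STZ replicate 1 (leave-one-out range 0 to 1) and 1 without both HFD+STZ replicate 1 and chow replicate 3. Genes called among all tested were less stable. In HFD+STZ over chow, 25 became 307 by DESeq2, 190 with no filter, 0 with only both groups fitted, 2 with the replicate block, 1 with code range as a covariate, 493 without both libraries and 1 to 215 with each library left out. In METTL3 over chow, 475 became 1509 by DESeq2, 747 with no filter, 54 with only both groups fitted, 5 with the replicate block, 1 with code range, 1258 without both libraries and 34 to 750 with each library left out. In METTL3 over HFD+STZ, 0 became 102 by DESeq2 and 403 without both libraries. With code range as a covariate the members' median was 0.77 for HFD+STZ over chow and 0.12 for METTL3 over chow. With the replicate block, whose numbers do not pair the libraries, the medians were -0.61 for METTL3 over HFD+STZ, -0.21 for HFD+STZ over chow and -0.78 for METTL3 over chow. Scaled to nuclear counts alone, the summed members had a CPM of 170.0, 205.6, 179.9 and 237.7 in METTL3, 389.7 in HFD+STZ replicate 1 and 410.2 in chow replicate 3, and without TMM METTL3 replicate 4 had 128.2.

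Directions of single genes turned as follows, as log2 fold changes, with the range over each library left out in turn. For METTL3 over HFD+STZ, Ccna2 ranged from -1.45 to 0.53, Kif11 from -0.77 to 0.85 and Mcm6 from -0.28 to 0.22, each above 0 without HFD+STZ replicate 1, and without both libraries they were 0.52, 0.85 and 0.22. Among codes 25 to 33 alone Kif11 was 0.95, Mcm6 0.067 and Cenpa -0.033, and with code range Kif11 was 0.17. For HFD+STZ over chow, Cdk1 ranged from -1.24 to 0.56, Kif11 from -1.32 to 0.53 and Mki67 from -1.59 to 0.60, the lowest without HFD+STZ replicate 1 and the highest without chow replicate 3. Without both libraries these 3 were -0.75, -0.84 and -1.20, and with the replicate block -0.32, -0.18 and -0.37. In the same comparison Aurkb ranged from -2.40 to 0.084, Cenpa from -0.49 to 0.20, Ndc80 from -1.34 to 0.10, Pcna from -0.68 to 0.12 and Top2a from -2.05 to 0.29, each above 0 without chow replicate 3, and without both libraries Cenpa was 0.25. With code range Aurkb was 0.76, Mycn 0.37 and Top2a 0.81. For METTL3 over chow, Cenpa ranged from -0.41 to 0.28 and Pcna from -0.51 to 0.29, above 0 without chow replicate 3, and were 0.28 and 0.29 without both libraries, and Mki67 was 0.26 with code range. The cause was not tested. Many members gave few counts per library, which limits the precision of single genes.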
